A study of Mus musculus with 9 samples.

Results

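The genes described here are 10 collagen genes of the mouse aorta: the fibrillar genes Col1a1, Col1a2, Col3a1, Col5a1 and Col5a2, the basement membrane genes Col4a1 and Col4a2, the network gene Col8a1, and the genes of the basement membrane zone Col15a1 and Col18a1. They were taken by symbol from the deposited counts, where they are 10 of 55453 genes listed. All 10 passed the filter on low counts and are among the 19412 genes tested.

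Fibrillar collagens build the rope-like fibres that carry tension in the vessel wall. Type I is made of the chains of Col1a1 and Col1a2, type III of the chain of Col3a1, and type V, from Col5a1 and Col5a2, starts fibrils and limits their width. Col4a1 and Col4a2 chains form the sheet-like network of type IV collagen under endothelium and around each smooth muscle cell. Col8a1 makes a short-chain network collagen of the vessel wall. Col15a1 and Col18a1 encode the multiplexins, proteoglycan collagens of basement membrane zones, and endostatin is cut from the end of the Col18a1 product. In the aorta, fibrillar collagens are known as products of adventitial fibroblasts and of smooth muscle cells.

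RNA came from whole, flash-frozen aortae of C57BL/6J mice, and polyadenylated RNA was sequenced as 75 nt single-end reads from 200 ng of total RNA per library. There were 3 mice in each of 3 genotypes: Itga8-Cre, with the tamoxifen-inducible recombinase Itga8-CreERT2, named for the integrin alpha 8 gene, Myh11-Cre, with Myh11-CreERT2, named for the smooth muscle myosin gene, and Wild Type. The series set the activity of the Itga8-CreERT2 mouse beside that of the Myh11-CreERT2 mouse. The labels name no sex, age, tamoxifen dose, floxed allele or batch, so any of these that differs with genotype cannot be told apart from it.

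Total counts ran from 31419238 to 42497543 per library, and the 10 collagens took 0.224% to 0.592% of them. The unit of level is CPM, the count of a gene relative to its library's total with TMM factors applied. Itga8, the targeted gene, measured 54.1, 76.5 and 62.9 CPM in aortae of Itga8-Cre mice, against 475, 147 and 196 CPM in those of Wild Type mice. All Itga8-Cre mice were lower for Itga8, with a log2 fold change of -2.08 to Wild Type (edgeR adjusted p = 0.699, DESeq2 adjusted p = 0.0482). Myh11 measured 460, 1045 and 1114 CPM in Myh11-Cre aortae, against 1371, 1078 and 986 CPM in those of Wild Type mice. Markers of tissue around the vessel and of macrophages differed widely between libraries. The summed CPM of 10 skeletal muscle markers ran from 147.5 to 6586 in Itga8-Cre libraries, from 87.2 to 15160 in Myh11-Cre libraries and from 801 to 1696 in Wild Type libraries, and that of 10 macrophage markers from 562 to 1056, from 402 to 1049 and from 379 to 521 in the same genotypes. None of the markers was at 0 in all libraries. In whole aortae, fewer cells of a type and less RNA per cell cannot be told apart.

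No collagen gene passed the test in any comparison of genotypes. In edgeR's quasi-likelihood test with Benjamini-Hochberg adjustment, 0 of 10 were called in Itga8-Cre against Wild Type, in Myh11-Cre against Wild Type and in Itga8-Cre against Myh11-Cre, where 0% of all genes tested were called each time. What the collagens showed instead was a large spread between mice of each Cre line, shared by the fibrillar genes, and a smaller one in Col4a1 and Col4a2. In Wild Type mice the highest level was 1.17 to 1.62 times the lowest for the fibrillar genes, and 1.45 and 1.32 times for Col4a1 and Col4a2. For Col4a1 that was wider than in Itga8-Cre mice (1.34 times) or Myh11-Cre mice (1.06 times). Differences in spread between genotypes were not tested. Of 5 ratios between collagen genes, that of Col15a1 to Col18a1 had every mouse of both Cre lines above every Wild Type mouse, in a test that 3 mice against 3 cannot pass. Both comparisons use the same 3 Wild Type mice, and other ratios also had a pair of genotypes that did not overlap.

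Col1a1 (ENSMUSG00000001506.10) lies at chr11:94936224-94953042 on the plus strand of GRCm38, by the GENCODE M21 annotation. It measured 793, 908 and 458 CPM in aortae of Itga8-Cre mice, 293, 759 and 467 CPM in those of Myh11-Cre mice, and 749, 528 and 463 CPM in those of Wild Type mice. The ranges overlap in every pair of genotypes. Itga8-Cre mouse 2 was the highest and Myh11-Cre mouse 1 the lowest, 3.10 times apart. The fitted log2 fold change was 0.31 in Itga8-Cre against Wild Type (SE 0.38, edgeR adjusted p = 0.835), -0.20 in Myh11-Cre against Wild Type (SE 0.38, adjusted p = 0.812) and 0.51 in Itga8-Cre against Myh11-Cre (SE 0.38, adjusted p = 0.668). The 95% interval of the Itga8-Cre to Wild Type fold ran from 0.678 to 2.27, which holds both no difference and a doubling.

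Col1a2 (ENSMUSG00000029661.16, chr6:4504814-4541544, plus strand), which encodes the partner chain of type I collagen, measured 835, 905 and 517 CPM in aortae of Itga8-Cre mice, 372, 917 and 634 CPM in those of Myh11-Cre mice, and 876, 607 and 585 CPM in those of Wild Type mice. The ranges overlap again, and the same Myh11-Cre mouse is the lowest. Its log2 fold changes were 0.13, -0.11 and 0.23 in the order Itga8-Cre against Wild Type, Myh11-Cre against Wild Type and Itga8-Cre against Myh11-Cre (SE 0.35 each, edgeR adjusted p = 0.929, 0.893 and 0.810).

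Col3a1 (ENSMUSG00000026043.18, chr1:45311538-45349706, plus strand), the single chain of type III collagen, had the highest CPM of the 10. It measured 1350.3, 1558 and 731 CPM in aortae of Itga8-Cre mice, 581, 1469 and 807 CPM in those of Myh11-Cre mice, and 1274, 936 and 818 CPM in those of Wild Type mice. Mice of 1 genotype differed by up to 2.53-fold, more than any pair of genotype means. The log2 fold changes were 0.27 (SE 0.40), -0.08 (SE 0.40) and 0.35 (SE 0.40) in the same order of comparisons, with edgeR adjusted p = 0.864, 0.926 and 0.753.

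The type V genes showed the same mice high and low. Col5a1 (ENSMUSG00000026837.15, chr2:27886425-28039514, plus strand) measured 204, 231 and 123 CPM in aortae of Itga8-Cre mice, 111, 192 and 166 CPM in those of Myh11-Cre mice, and 208, 190.1 and 178 CPM in those of Wild Type mice. Col5a2 (ENSMUSG00000026042.16, chr1:45374321-45503282, minus strand) measured 146, 166 and 90.2 CPM in aortae of Itga8-Cre mice, 79.0, 153 and 112 CPM in those of Myh11-Cre mice, and 149, 108 and 109 CPM in those of Wild Type mice. Groups overlap for both genes. Col5a1 spanned 1.88-fold in Itga8-Cre and 1.73-fold in Myh11-Cre mice, against 1.17-fold in Wild Type mice, and the difference in spread was not tested. Col5a1 was at log2 -0.04, -0.29 and 0.25 and Col5a2 at 0.13, -0.09 and 0.22 in the same order of comparisons, with edgeR adjusted p between 0.582 and 0.970.

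**Figure D1:**
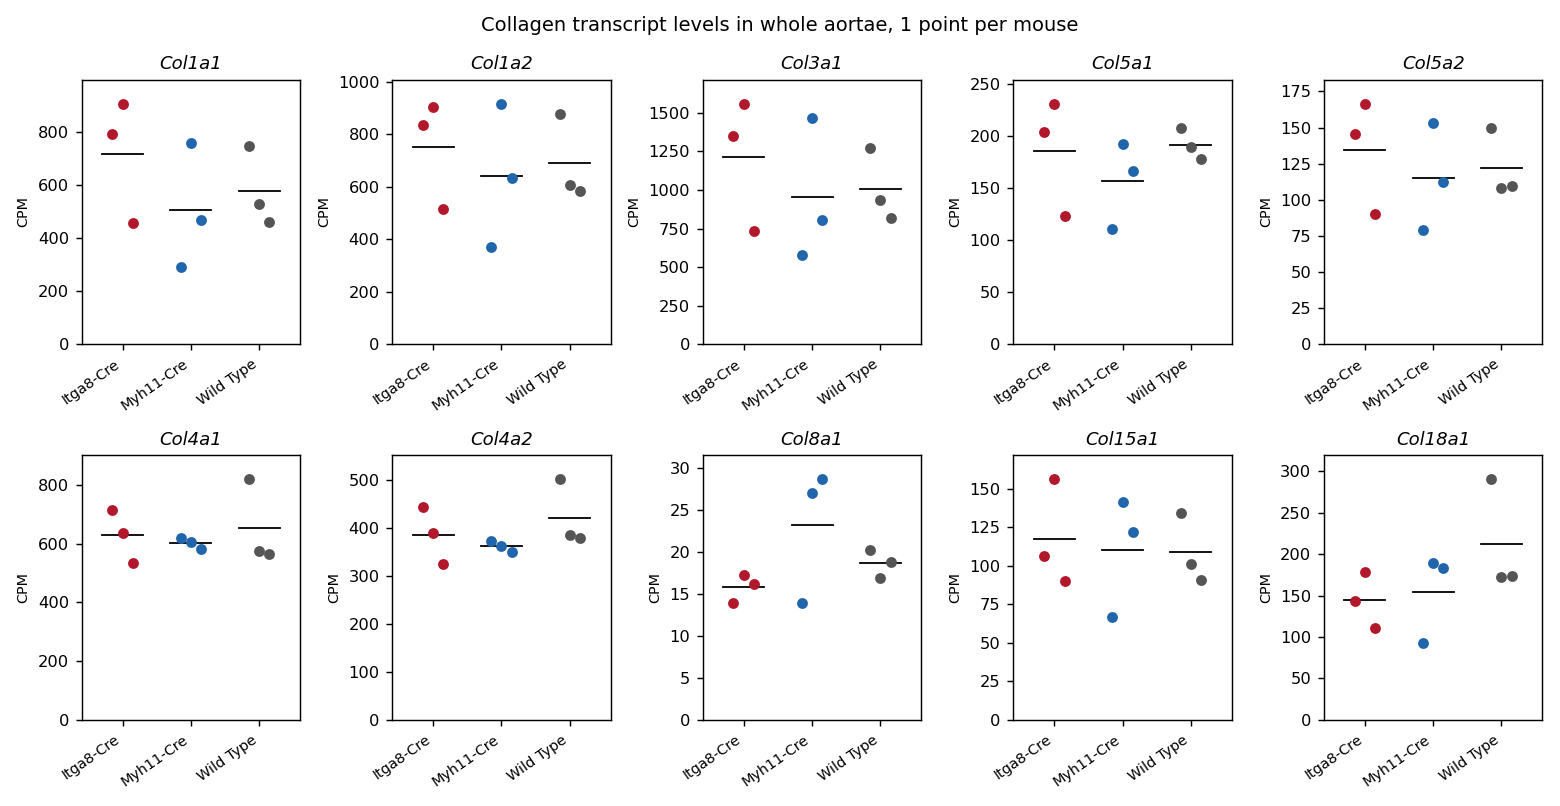
CPM of the 10 collagen genes (y axis, from 0) by genotype (x axis: Itga8-Cre, Myh11-Cre, Wild Type), with 1 point per mouse and a line at the mean of 3 mice. The points of Itga8-Cre overlap those of each other genotype in all 10 panels, and Col4a2 alone has all Myh11-Cre points under all Wild Type points.

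Over all 9 libraries the type IV collagen genes spanned the narrowest range of the set. Col4a1 (ENSMUSG00000031502.11, chr8:11198423-11312826, minus strand) measured 716, 636 and 535 CPM in aortae of Itga8-Cre mice, 619, 607 and 583 CPM in those of Myh11-Cre mice, and 819, 577 and 565 CPM in those of Wild Type mice. Col4a2 (ENSMUSG00000031503.13, chr8:11312805-11449287, plus strand) measured 445, 391 and 325 CPM in aortae of Itga8-Cre mice, 374, 364 and 350 CPM in those of Myh11-Cre mice, and 502, 386 and 379 CPM in those of Wild Type mice. Over all 9 libraries Col4a1 spanned 1.53-fold and Col4a2 1.55-fold, whereas the fibrillar genes spanned 2.08-fold to 3.10-fold. Myh11-Cre mice were within 1.06-fold of each other for Col4a1 and within 1.07-fold for Col4a2, although their Col1a1 levels differed by 2.59-fold. Within the other genotypes type IV was not the narrowest: Col8a1 spanned 1.24-fold in Itga8-Cre mice, where Col4a1 spanned 1.34-fold and Col4a2 1.37-fold, and in Wild Type mice Col5a1 and Col8a1 spanned less than either.

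All 3 Myh11-Cre libraries were under all 3 Wild Type libraries for Col4a2. This was 1 of 10 collagens in that direction, where 14.7% of all genes tested lay wholly lower and 11.3% wholly higher, with 0 of 10 collagens wholly higher. The log2 fold change of Col4a2 was -0.22 in Myh11-Cre against Wild Type (SE 0.17, edgeR adjusted p = 0.521), so it did not pass. In Itga8-Cre against Wild Type it was -0.13 (SE 0.17, adjusted p = 0.850), with a 95% interval of the fold from 0.702 to 1.20. For Col4a1 the log2 fold changes were -0.06 in Itga8-Cre against Wild Type, -0.12 in Myh11-Cre against Wild Type and 0.06 in Itga8-Cre against Myh11-Cre (SE 0.19 each, edgeR adjusted p = 0.945, 0.775 and 0.912).

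Col4a1 and Col4a2 stand head to head on opposite strands, and their annotated starts overlap by 22 bases at chr8:11312805-11312826. That stretch is shown because the annotated starts of both genes meet there. It is given on the plus strand from the RefSeq sequence of GRCm38.p6, with the letters GGGCGG in capitals.
Col4a1 and Col4a2 shared start: agtgcgcGGGCGGcgtctccaa
The strand setting of the counting step is not known, so reads over these 22 bases cannot be assigned to either gene with certainty, though they are a small part of exon lengths of 7464 and 6619 bases. Other overlapping genes add little: the one with the most counts that shares exon bases with a collagen other than this pair, 2810430I11Rik, opposite Col5a1, has 171 counts in all libraries together against 59220 for Col5a1.

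Col8a1 (ENSMUSG00000068196.5, chr16:57624258-57754737, minus strand) had the lowest level of the set. It measured 13.9, 17.3 and 16.2 CPM in aortae of Itga8-Cre mice, 13.9, 27.0 and 28.6 CPM in those of Myh11-Cre mice, and 20.2, 16.9 and 18.9 CPM in those of Wild Type mice. Myh11-Cre mice 2 and 3 were above every other mouse, while Myh11-Cre mouse 1 matched the lowest Itga8-Cre mouse. Between Itga8-Cre and Myh11-Cre the log2 fold change was -0.55 (SE 0.25, edgeR unadjusted p = 0.0530, adjusted p = 0.521, fold interval 0.463 to 1.01), the smallest edgeR p of any collagen in any comparison. DESeq2 gave it an unadjusted p of 0.0284 and an adjusted p of 0.414. Without Myh11-Cre mouse 1 it was -0.81 with an edgeR adjusted p of 0.253, and that group then holds 2 mice. Markers of 3 tissues moved with Col8a1 over the 9 libraries. For fibroblast markers this rested largely on Myh11-Cre mice 2 and 3, with a Pearson's r of 0.371 without them. The summed CPM of 10 smooth muscle markers was 1421, 1888 and 1859 in Itga8-Cre mice, 1146, 3182 and 3385 in Myh11-Cre mice, and 3598, 2303 and 2194 in Wild Type. For 10 fibroblast markers it was 1427, 1352 and 1130 in Itga8-Cre mice, 1295, 2346 and 2154 in Myh11-Cre mice, and 1511, 1365 and 1399 in Wild Type. Skeletal muscle markers were likewise highest in Myh11-Cre mice 2 and 3 and lowest in Myh11-Cre mouse 1. The part of these tissues in the Col8a1 values was not tested.

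Among the multiplexins, Col15a1 (ENSMUSG00000028339.17, chr4:47208161-47313167, plus strand) measured 107, 156 and 89.9 CPM in aortae of Itga8-Cre mice, 66.5, 141 and 122 CPM in those of Myh11-Cre mice, and 134, 101 and 90.8 CPM in those of Wild Type mice. Its groups overlap, and the log2 fold changes were 0.11, 0.02 and 0.09 (SE 0.31 each, edgeR adjusted p = 0.929, 0.981 and 0.914, in the same order of comparisons). Col18a1 (ENSMUSG00000001435.15, chr10:77052178-77166548, minus strand) measured 144, 178 and 111 CPM in aortae of Itga8-Cre mice, 92.6, 189 and 183 CPM in those of Myh11-Cre mice, and 290.02, 173 and 174 CPM in those of Wild Type mice. Wild Type mouse 1 was the highest of the 9, and the lowest Wild Type level lies under the highest level of each Cre line. Col18a1 had the largest fold against Wild Type: log2 -0.56 in Itga8-Cre (SE 0.32, edgeR adjusted p = 0.703) and -0.45 in Myh11-Cre (SE 0.32, adjusted p = 0.489), both short of the threshold. Leaving out 1 mouse at a time, these ran from -0.74 to -0.28 and from -0.61 to -0.16. For Itga8-Cre against Myh11-Cre the log2 fold change of Col18a1 was -0.10 (SE 0.32, edgeR adjusted p = 0.913).

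At an unadjusted p under 0.05, edgeR called 0 of 10 collagens in Itga8-Cre against Wild Type, where 6.78% of all genes reached it, 0 of 10 in Myh11-Cre against Wild Type, where 16.4% did, and 0 of 10 in Itga8-Cre against Myh11-Cre, where 9.48% did. DESeq2 called 0 of 10 collagens at an adjusted p under 0.05 in each comparison, beside 0.166%, 4.44% and 0.109% of the genes it tested in the same order. In limma voom it was again 0 of 10 each time, beside 0% of all genes. Apart from Col4a2 above, no collagen had groups that did not overlap. In Itga8-Cre against Wild Type 5.76% of all genes lay wholly higher and 5.37% wholly lower, and in Itga8-Cre against Myh11-Cre 9.65% and 3.07%.

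The median log2 fold change of the 10 collagens was 0.03 in Itga8-Cre against Wild Type, -0.11 in Myh11-Cre against Wild Type and 0.16 in Itga8-Cre against Myh11-Cre, beside 0.04, 0.01 and 0.01 for all genes tested. Both Cre lines were set against the same Wild Type mice. The 5 fibrillar genes had medians of 0.13 (4 of 5 above 0), -0.11 (0 of 5 above 0) and 0.25 (5 of 5 above 0), and none of them passed. Of all 19412 genes tested, 10851, 9880 and 9964 were above 0 in the same order. The other 5 genes had medians of -0.13, -0.12 and 0.06. The 5 fibrillar genes vary together across mice, so a shared sign among them is not 5 separate observations. Leaving out Itga8-Cre mouse 3 and Myh11-Cre mice 2 and 3, the libraries with the most skeletal muscle markers, moved the median to -0.74 in Myh11-Cre against Wild Type and to 0.96 in Itga8-Cre against Myh11-Cre, with no call. That setting keeps only the Myh11-Cre library with the lowest fibrillar levels and drops the Itga8-Cre library with the lowest.

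**Figure D2:**
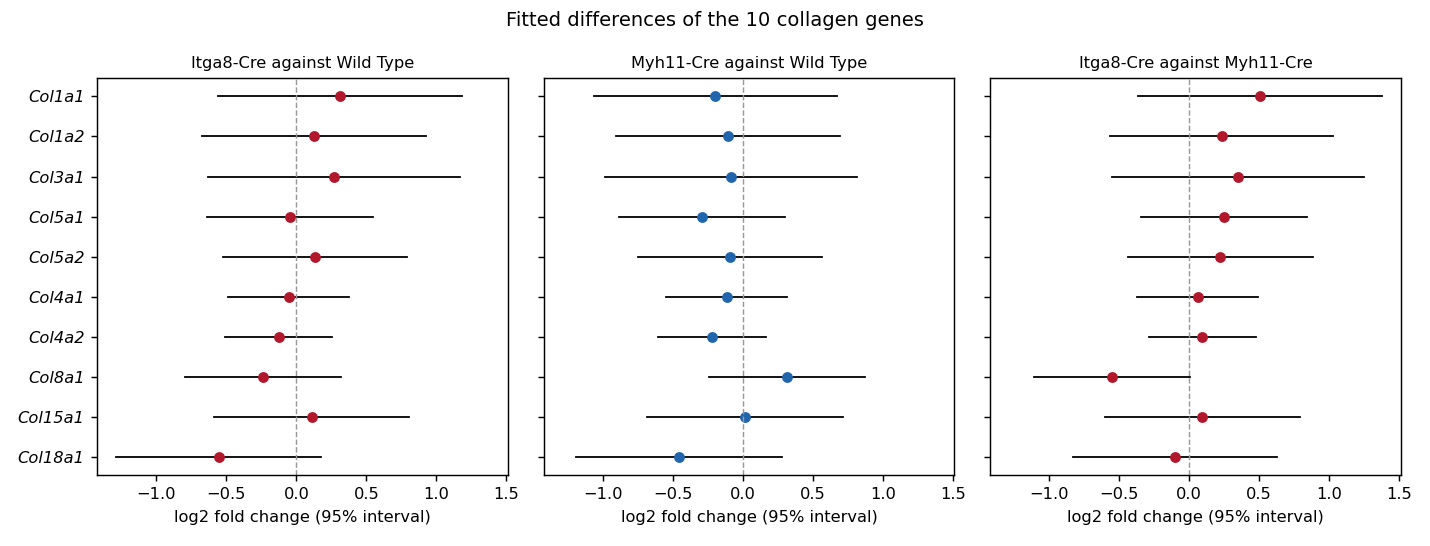
Fitted log2 fold change of each collagen gene (x axis) with its 95% interval, in Itga8-Cre against Wild Type, Myh11-Cre against Wild Type and Itga8-Cre against Myh11-Cre, from edgeR with 3 mice per genotype. The interval includes 0 for all 10 genes in all 3 panels, and it is narrowest for Col4a1 and Col4a2.

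Across the 9 mice the 5 fibrillar genes were high and low together. Over the 10 pairs of these genes, Pearson's r of log2 CPM ran from 0.887 to 0.983 and Spearman's rho from 0.85 to 0.967 (n = 9). With genotype means taken out, r ran from 0.931 to 0.992, and without the 2 libraries farthest from the median of either gene from 0.717 to 0.992. These are descriptions of 9 libraries that share kit, tissue and scaling. Their summed level was 3328, 3769 and 1920 CPM in aortae of Itga8-Cre mice, 1436, 3491 and 2187 CPM in those of Myh11-Cre mice, and 3256, 2369 and 2153 CPM in those of Wild Type mice. Each genotype thus holds a mouse with a high sum and a mouse with a low one.

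Type IV collagen followed that pattern less closely over all 9 libraries. Pairs of a fibrillar gene with Col4a1 or Col4a2 had r from 0.479 to 0.571 (rho 0.4 to 0.767), and 0.44 to 0.577 with genotype means taken out. Here r rests on a few libraries. It ran from 0.233 to 0.567 without the 2 farthest for the type IV gene. Without the 2 farthest for the fibrillar gene it ran from 0.536 to 0.85. Col4a1 and Col4a2 followed each other with r = 0.943 and rho = 0.75, which was 0.671 without the 2 farthest libraries. The 5 basement membrane zone and network genes together measured 1426, 1378 and 1076 CPM in Itga8-Cre mice, 1166, 1327 and 1267 CPM in Myh11-Cre mice, and 1765, 1254 and 1227 CPM in Wild Type. Fibrillar counts were 2.29 ± 0.478 times these in Itga8-Cre mice, 1.86 ± 0.709 times in Myh11-Cre and 1.83 ± 0.0686 times in Wild Type (mean ± SD, n = 3 each).

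Among the multiplexins, Col15a1 went with the fibrillar genes (r 0.828 to 0.923, n = 9) and with Pdgfra, a fibroblast marker (r = 0.912, rho = 0.95). Without the 2 libraries farthest for Col15a1, r with the fibrillar genes ran from 0.549 to 0.826. The r of Col15a1 with Acta2, the smooth muscle actin gene, was 0.661 (rho = 0.583). Col18a1 had r = 0.87 with Acta2 (rho = 0.933) and 0.579 with Pdgfra (rho = 0.683). With genotype means taken out the multiplexins were alike: r with Pdgfra was 0.935 for Col15a1 and 0.863 for Col18a1, and r with Acta2 was 0.818 for Col15a1 and 0.885 for Col18a1. Without the 2 libraries farthest from the median of the marker they were less alike. With Pdgfra r was then 0.835 for Col15a1 and 0.42 for Col18a1, and with Acta2 0.547 and 0.743. Col1a1 had r = 0.818 with Pdgfra (rho = 0.867) but 0.251 with the sum of 10 fibroblast markers (rho = 0.433), and with genotype means taken out these were 0.931 and 0.856. With Acta2 it had r = 0.4 (rho = 0.25), or 0.681 with genotype means taken out. Without the 2 libraries farthest for each, r of Col1a1 was 0.62 with Pdgfra, 0.496 with the fibroblast sum and 0.126 with Acta2. Col8a1 had r = 0.876 with the summed smooth muscle markers (rho = 0.9), 0.878 with the summed fibroblast markers (rho = 0.767) and 0.803 with the summed skeletal muscle markers (rho = 0.717). Without the 2 libraries farthest for each sum, r was 0.961, 0.371 and 0.637 in the same order. With Col1a1, Col8a1 had r = 0.192 (rho = 0.25), or 0.611 with genotype means taken out. The fibrillar genes also followed the summed macrophage markers, with r between 0.526 for Col5a1 and 0.754 for Col3a1 (rho 0.467 to 0.733). With genotype means taken out r ran from 0.886 to 0.916. Without the 2 libraries farthest for these markers it ran from 0.324 for Col5a1 to 0.556 for Col1a1. The part of macrophages in these levels was not tested.

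**Figure D3:**
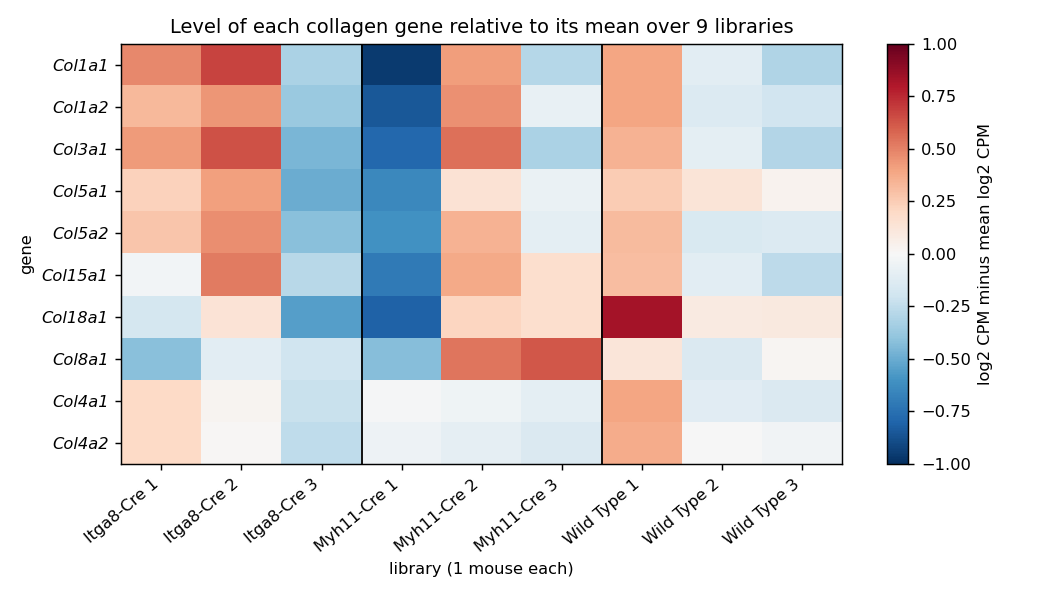
Level of each collagen gene in each library as log2 CPM minus the gene's mean log2 CPM over 9 libraries (colour: red higher, blue lower), with genes down the page and mice across, Itga8-Cre, Myh11-Cre and Wild Type from left to right. In the column of Myh11-Cre mouse 1 every gene except Col4a1 and Col4a2 is blue and at its lowest of the 9 libraries, whereas these stay pale.

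Of the tested genes with a named symbol and a mean of at least 1 CPM (13807), those outside the 10 collagens with a pattern most like Col1a1 over the 9 libraries were Tmem138 (r = 0.968), C1qtnf6 (r = 0.950), Rap2a (r = 0.941), Fn1 (r = 0.934) and Mfap3 (r = 0.933). Fn1 encodes fibronectin, the glycoprotein on which collagen fibrils are laid down. The genes most like Col4a1, other than these collagens, were Fam83a (r = 0.918), Txndc17 (r = 0.916), Ttyh2 (r = 0.905), Sft2d2 (r = 0.900) and Anapc10 (r = 0.900). Without the 2 farthest libraries these had r from 0.485 to 0.849, and those of the Col1a1 group from 0.83 to 0.969.

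The 250 bases before the RefSeq start on GRCm38.p6 are shown for the fibrillar genes Col1a2, Col3a1 and Col5a1, which move together, and for Col15a1 and the annotated starts of Col18a1, whose ratio is described below. Each is printed 5′ to 3′ on the gene's strand, with capitals at matches on either strand to the CCAAT box, to the GC box with the letters GGGCGG, or to the TATA motif with the letters TATAAA.
Col1a2, chr6:4505368-4505617, plus strand: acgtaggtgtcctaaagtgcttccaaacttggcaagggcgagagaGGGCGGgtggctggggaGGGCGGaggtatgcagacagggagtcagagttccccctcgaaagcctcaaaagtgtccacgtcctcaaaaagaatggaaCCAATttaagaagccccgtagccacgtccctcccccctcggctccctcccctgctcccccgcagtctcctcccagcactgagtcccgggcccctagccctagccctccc
Col3a1, chr1:45311288-45311537, plus strand: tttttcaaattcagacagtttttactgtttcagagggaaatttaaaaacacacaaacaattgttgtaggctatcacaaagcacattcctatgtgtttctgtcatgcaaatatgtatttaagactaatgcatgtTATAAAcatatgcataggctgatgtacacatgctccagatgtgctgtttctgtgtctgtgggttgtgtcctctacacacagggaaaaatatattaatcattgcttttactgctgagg
Col5a1, chr2:27886175-27886424, plus strand: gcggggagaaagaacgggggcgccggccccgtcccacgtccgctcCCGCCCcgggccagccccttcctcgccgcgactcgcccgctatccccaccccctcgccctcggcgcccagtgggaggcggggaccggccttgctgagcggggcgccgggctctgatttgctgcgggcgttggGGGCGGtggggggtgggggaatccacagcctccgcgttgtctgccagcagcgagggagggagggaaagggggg
Col15a1, chr4:47207762-47208011, plus strand: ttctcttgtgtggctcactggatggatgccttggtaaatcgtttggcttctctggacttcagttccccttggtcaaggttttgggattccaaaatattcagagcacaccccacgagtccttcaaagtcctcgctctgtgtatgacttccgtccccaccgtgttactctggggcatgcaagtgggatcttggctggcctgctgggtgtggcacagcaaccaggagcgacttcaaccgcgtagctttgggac
Col18a1 start 1, chr10:77166531-77166780, minus strand: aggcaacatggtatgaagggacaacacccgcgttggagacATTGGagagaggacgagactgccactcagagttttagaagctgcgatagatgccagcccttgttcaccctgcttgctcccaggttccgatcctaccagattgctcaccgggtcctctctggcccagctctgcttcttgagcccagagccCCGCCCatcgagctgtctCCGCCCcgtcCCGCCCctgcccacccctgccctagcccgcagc
Col18a1 start 2, chr10:77113706-77113955, minus strand: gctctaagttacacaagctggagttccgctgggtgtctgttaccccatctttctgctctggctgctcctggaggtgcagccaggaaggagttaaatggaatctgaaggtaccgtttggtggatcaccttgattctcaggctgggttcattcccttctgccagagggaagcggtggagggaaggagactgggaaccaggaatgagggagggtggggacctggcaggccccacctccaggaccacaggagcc
The Col3a1 window holds the TATA motif, starting 117 bases before the start, and is 35.2% G and C. The Col5a1 window is 76.4% G and C and holds 2 GC boxes. In the Col1a2 window there is 1 CCAAT box and 2 GC boxes. Start 1 of Col18a1 has 1 CCAAT box and 3 GC boxes, and neither its start 2 nor Col15a1 has any of the 3. Among 32851 windows of the same length, 33.85% hold the CCAAT box, 32.74% the GC box and 12.37% the TATA motif. The AP-1 motif TGANTCA, in 6.75% of all windows, and the CArG box, in 1.47%, were also searched on both strands and are in none of the windows of the 8 collagens with an entry. These matches are letters in a window, and no binding was measured. The counts do not tell the starts of Col18a1 apart.

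Levels between genes are compared per kilobase (kb) of merged exon. On that scale Col3a1 averaged 107.8, Col1a1 91.7, Col4a1 84.2, Col4a2 59.0 and Col1a2 55.9 CPM per kb over the 9 libraries. Below them came Col18a1 at 24.3, Col5a1 at 21.0, Col15a1 at 17.7, Col5a2 at 12.9 and Col8a1 at 2.45 CPM per kb. Per merged exon most of this order held in every mouse: Col3a1 was above Col1a1, Col4a1 above Col4a2, Col1a2 above Col18a1, Col5a1 above Col15a1, Col15a1 above Col5a2 and Col5a2 above Col8a1 in 9 of 9 libraries. Col1a1 and Col4a1 changed places, with Col1a1 higher in 5 of 9 libraries, and Col4a2 was above Col1a2 and Col18a1 above Col5a1 in 7 of 9 each. The place of Col1a2 rests on the length used, since with its longest transcript in place of merged exons it comes to 129.8 CPM per kb, and Col4a2 is then above it in 0 of 9 libraries. On that length Col15a1, at 21.7 CPM per kb, also passes Col5a1, at 21.2, with Col5a1 above it in 4 of 9 libraries.

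Ratios within a library cancel depth and any change common to both genes. For Col15a1 to Col18a1, both per kb, the ratio was 0.821, 0.968 and 0.895 in aortae of Itga8-Cre mice, 0.795, 0.828 and 0.738 in those of Myh11-Cre mice, and 0.513, 0.647 and 0.579 in those of Wild Type mice. All 6 mice of the Cre lines were above all 3 Wild Type mice. The ratio was 1.55-fold higher in Itga8-Cre than in Wild Type (log2 difference 0.63) and 1.36-fold higher in Myh11-Cre than in Wild Type (log2 difference 0.45). Each had a two-sided exact permutation p of 0.1, the smallest that 3 mice against 3 can give, and 0.214 after Benjamini-Hochberg adjustment over the 15 ratio tests, so neither passes. Itga8-Cre against Myh11-Cre overlapped (log2 difference 0.18, exact permutation p = 0.2, adjusted 0.3). Both differences rest on the same 3 Wild Type mice.

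Leaving out each mouse in turn kept the log2 difference of that ratio between 0.54 and 0.71 in Itga8-Cre against Wild Type and between 0.36 and 0.53 in Myh11-Cre against Wild Type. Without the 3 libraries richest in skeletal muscle markers it was 0.63 and 0.46. Other tissue markers split the genotypes in the same way. The summed CPM of 10 mesothelial markers was 138, 124 and 195 in Itga8-Cre mice, 168, 360 and 223 in Myh11-Cre mice, and 113, 65.1 and 59.8 in Wild Type, so that all Cre mice were above all Wild Type mice here too. Smooth muscle markers were lower in all 3 Itga8-Cre mice than in all Wild Type mice, but not in the Myh11-Cre mice. The part of either in the ratio was not tested.

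The chains of type I collagen kept a narrow ratio. Col1a1 to Col1a2, per kb, was 1.80, 1.90 and 1.68 in aortae of Itga8-Cre mice, 1.49, 1.57 and 1.40 in those of Myh11-Cre mice, and 1.62, 1.65 and 1.50 in those of Wild Type mice. All Itga8-Cre mice were above all mice of the other genotypes, by 1.13-fold against Wild Type and 1.21-fold against Myh11-Cre (exact permutation p = 0.1 each, adjusted 0.214). Myh11-Cre and Wild Type overlapped (exact permutation p = 0.2, adjusted 0.3). The ratio is per merged exon length, so its size, though not the difference between genotypes, depends on the annotation. With the longest transcript as length it ran from 0.665 to 0.904 over the 9 libraries, so that Col1a2 was then above Col1a1.

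For type IV collagen the ratio of Col4a1 to Col4a2 was 1.43, 1.44 and 1.46 in Itga8-Cre mice, 1.47, 1.48 and 1.48 in Myh11-Cre mice, and 1.45, 1.33 and 1.32 in Wild Type. Myh11-Cre mice were all above Wild Type mice, by 1.08-fold, and Itga8-Cre mice all below Myh11-Cre mice, at 0.979 times their ratio (exact permutation p = 0.1 each, adjusted 0.214). Col3a1 to Col1a1 was 1.14, 1.15 and 1.07 in Itga8-Cre mice, 1.33, 1.29 and 1.15 in Myh11-Cre mice, and 1.14, 1.18 and 1.18 in Wild Type. There, Itga8-Cre lay wholly below Myh11-Cre (0.890 times, exact permutation p = 0.1, adjusted 0.214), and both overlapped Wild Type. Col5a1 to Col5a2 averaged 1.57 ± 0.0184 in Itga8-Cre mice, 1.56 ± 0.128 in Myh11-Cre and 1.80 ± 0.211 in Wild Type (mean ± SD, n = 3 each), with overlap in every comparison.

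**Figure D4:**
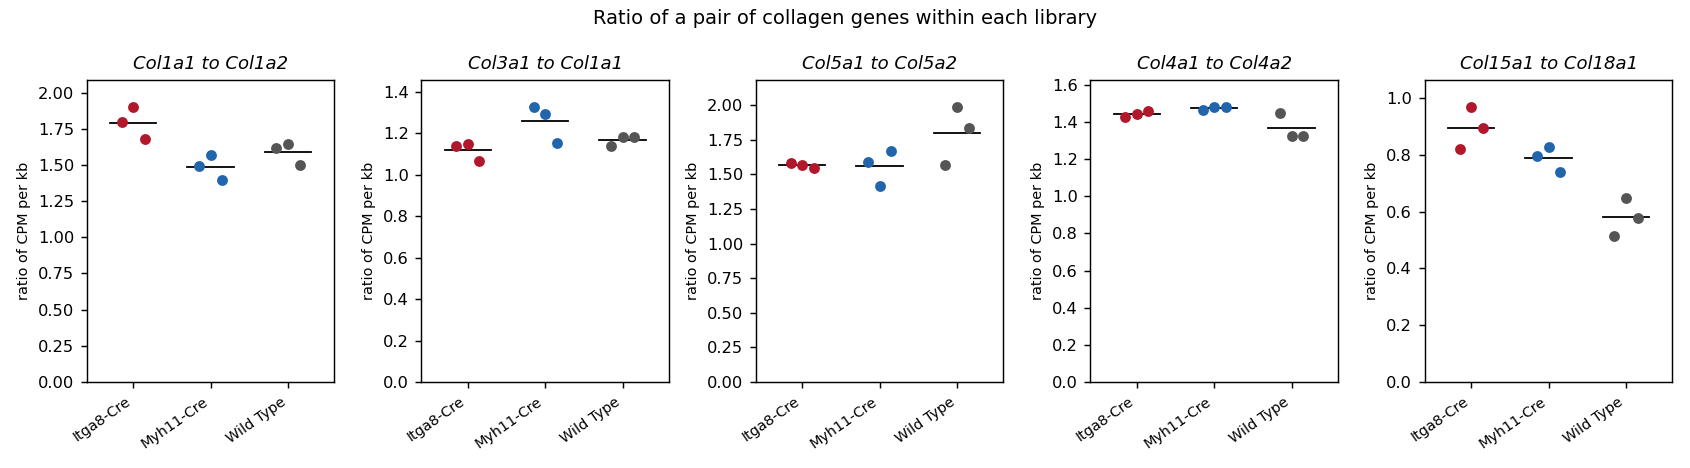
Ratio of CPM per kb of a pair of collagen genes within each library (y axis, from 0) by genotype (x axis: Itga8-Cre, Myh11-Cre, Wild Type), with 1 point per mouse and a line at the mean. For Col15a1 to Col18a1 the 6 points of the Cre lines lie at 0.738 or more and the 3 Wild Type points at 0.647 or less.

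The other genes of the collagen pathway were described by 9 lists, for which edgeR called 0 genes in every comparison. In each list the medians and counts below stand beside the all-gene medians of 0.04, 0.01 and 0.01 and, at an unadjusted p, beside the shares of all genes given above. The genes named are among those with the smallest p in their list.

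Of 14 tested fibrillar and fibril-associated collagens outside the set, with medians of 0.01 in Itga8-Cre against Wild Type, 0.17 in Myh11-Cre against Wild Type and -0.14 in Itga8-Cre against Myh11-Cre, edgeR reached an unadjusted p under 0.05 for 0, 3 and 1. Col19a1, a fibril-associated collagen, was at log2 -0.40 in Itga8-Cre and -0.64 in Myh11-Cre against Wild Type (edgeR adjusted p = 0.699 and 0.232). Col5a3, a further type V chain, was at 0.64 in Itga8-Cre against Myh11-Cre (adjusted p = 0.521). Col24a1 was at 2.52 in Itga8-Cre against Wild Type (SE 1.19, adjusted p = 0.699), with 12.9, 22.8 and 1.42 CPM against 1.83, 4.05 and 0.599 CPM. The cartilage gene Col2a1 was at 3.01 in Myh11-Cre against Wild Type and -2.03 in Itga8-Cre against Myh11-Cre (SE 1.11 and 1.05, adjusted p = 0.259 and 0.558). Its levels were low, at 0.328, 2.46 and 5.05 CPM in Myh11-Cre mice and 0.608, 0.185 and 0.182 CPM in Wild Type. Groups overlap for both genes in these comparisons.

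The 19 other network, filament and membrane collagens had medians of -0.08, 0.07 and -0.09 in the same order, with 0, 3 and 3 at an unadjusted p under 0.05. Col28a1, known from the sheath of peripheral nerve, measured 10.7, 8.19 and 7.42 CPM in Myh11-Cre aortae, against 12.2, 19.2 and 25.8 CPM in those of Wild Type mice. All Myh11-Cre mice were lower, at log2 -1.12 (SE 0.27, edgeR adjusted p = 0.218, DESeq2 adjusted p = 0.00956). Nerve and glia markers moved with it, their summed CPM being 367, 246 and 214 in Myh11-Cre and 373, 560 and 701 in Wild Type, and their part was not tested. Col10a1, the collagen of hypertrophic cartilage, measured 1.12, 2.24 and 10.9 CPM in Myh11-Cre aortae, against 0.290, 0.529 and 0.442 CPM in those of Wild Type mice, at log2 3.48 (SE 1.01, adjusted p = 0.218 in edgeR and 0.00557 in DESeq2), and 1 mouse holds most of it: without it the log2 fold change was 1.99. Col10a1 was at 2.19 and Col4a4 at -0.36 in Itga8-Cre against Wild Type (edgeR adjusted p = 0.699 each). Col17a1, in Itga8-Cre against Myh11-Cre, was at -3.12 and Col28a1 at 0.69 (edgeR adjusted p = 0.521 each). Col17a1 measured 0.229, 0.747 and 2.36 CPM in Itga8-Cre mice, 0.602, 24.0 and 4.35 CPM in Myh11-Cre mice, and 0.579, 0.397 and 0.416 CPM in Wild Type, so that 1 Myh11-Cre mouse holds most of it. DESeq2 called Col17a1, a transmembrane collagen of epithelia, in Myh11-Cre against Wild Type (log2 4.40, adjusted p = 0.0163), and edgeR did not (log2 4.38, adjusted p = 0.225).

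Procollagen is hydroxylated and folded in the endoplasmic reticulum. The 23 genes of folding and modification had medians of -0.03, 0.08 and -0.11, and 0, 2 and 2 of them reached an unadjusted p under 0.05. P4ha1, a catalytic subunit of the prolyl hydroxylase that makes the triple helix stable, was at log2 0.33 in Itga8-Cre and 0.43 in Myh11-Cre against Wild Type (edgeR adjusted p = 0.699 and 0.259), and Ppib, a prolyl isomerase, at 0.25 in Myh11-Cre against Wild Type (adjusted p = 0.277). Tent5a was at -0.66 in Itga8-Cre against Wild Type (adjusted p = 0.699). In Itga8-Cre against Myh11-Cre, P4ha2 was at -0.29 and Fkbp7, a further isomerase, at -0.37 (edgeR adjusted p = 0.521 each).

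For export, processing and cross-linking (22 genes) the medians were -0.05, 0.10 and -0.08, with 0, 1 and 0 at an unadjusted p under 0.05. Pxdn, the peroxidase that cross-links type IV collagen, was at log2 -0.34 in Itga8-Cre and -0.23 in Myh11-Cre against Wild Type (edgeR adjusted p = 0.699 and 0.495). Pcolce2, an enhancer of procollagen cleavage, was at -0.67 in Itga8-Cre against Wild Type and -0.75 in Itga8-Cre against Myh11-Cre (adjusted p = 0.699 and 0.521), and the procollagen protease gene Adamts14 at 0.52 in the second of these (adjusted p = 0.545). Tll2, a protease of the tolloid family, was at -1.62 in Myh11-Cre against Wild Type (edgeR adjusted p = 0.230, DESeq2 adjusted p = 0.0437), and its groups overlap.

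Proteoglycans and glycoproteins bound to fibrils (16 genes) had medians of -0.13, 0.27 and -0.39, with 0 of 16 at an unadjusted p under 0.05 in any comparison. In Itga8-Cre against Myh11-Cre 2 of 16 were above 0, beside 9964 of all 19412 genes tested, and this difference in sign was not tested. Periostin, Postn, was at log2 -0.62 and osteoglycin, Ogn, at -0.63 in Itga8-Cre against Wild Type (edgeR adjusted p = 0.699 and 0.718). Ogn measured 43.9, 53.9 and 53.2 CPM in Itga8-Cre mice, against 125, 46.9 and 61.5 CPM in Wild Type mice, and without the first of these its log2 fold change was -0.12. Decorin, Dcn, and dermatopontin, Dpt, which both bind fibrils, were each at 0.58 in Myh11-Cre against Wild Type (adjusted p = 0.375 and 0.435). Dpt was at -0.72 and asporin, Aspn, at -0.57 in Itga8-Cre against Myh11-Cre (adjusted p = 0.551 and 0.545). The summed CPM of 10 fibroblast markers, Dpt among them, ran from 1130 to 1427 in Itga8-Cre mice, from 1295 to 2346 in Myh11-Cre and from 1365 to 1511 in Wild Type, and its part in these values was not tested.

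Laminins, nidogens and other partners of type IV collagen (17 genes) had medians of -0.12, -0.07 and -0.16, with 2, 3 and 1 at an unadjusted p under 0.05. Lama4 and Lama5, the laminin alpha chains of vessel basement membranes, were at log2 -0.41 and -0.38 in Itga8-Cre against Wild Type (edgeR adjusted p = 0.699 each). Lamb3, a laminin chain of epithelia, was at 1.28 in Myh11-Cre against Wild Type (edgeR adjusted p = 0.230), and DESeq2 called it (adjusted p = 0.0350). In Itga8-Cre against Myh11-Cre, Smoc1 was at -0.32 and Lama2 at -0.43 (edgeR adjusted p = 0.595 and 0.648).

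Among 12 collagen receptors the medians were -0.11, -0.02 and -0.15, with 2, 2 and 0 at an unadjusted p under 0.05. Itga1, the integrin alpha chain that binds type IV collagen, was at log2 -0.34 in Itga8-Cre against Wild Type, and Itga2, that of fibrillar collagens, at -0.54 in Myh11-Cre against Wild Type (edgeR adjusted p = 0.699 and 0.286). Lair1, an inhibitory collagen receptor of leukocytes, was at 0.67 in Itga8-Cre against Wild Type and 0.64 in Itga8-Cre against Myh11-Cre (adjusted p = 0.699 and 0.521). The receptor kinase gene Ddr1 was at 0.33 in Myh11-Cre against Wild Type and Itga11 at -0.51 in Itga8-Cre against Myh11-Cre (adjusted p = 0.315 and 0.545).

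The 18 genes of collagen breakdown and its inhibitors had medians of 0.11, 0.12 and -0.13, with 0, 1 and 0 at an unadjusted p under 0.05. Timp1, an inhibitor of metalloproteinases, was at log2 1.66 and Mmp14, a membrane collagenase, at 0.80 in Itga8-Cre against Wild Type (edgeR adjusted p = 0.699 each), and Mmp14 at 0.55 in Itga8-Cre against Myh11-Cre (adjusted p = 0.673). The protease genes Ctsl and Mmp9 were at 0.40 and 0.60 in Myh11-Cre against Wild Type (adjusted p = 0.252 and 0.376), and Timp3, the matrix-bound inhibitor, at -0.37 in Itga8-Cre against Myh11-Cre (adjusted p = 0.576).

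TGF-beta is the best known inducer of fibrillar collagen genes. Of 22 genes of this pathway and of collagen transcription, with medians of 0.03, -0.02 and -0.02, edgeR reached an unadjusted p under 0.05 for 3, 1 and 2. Tgfb1 itself measured 25.3, 34.1 and 28.6 CPM in aortae of Itga8-Cre mice, 18.6, 22.8 and 23.3 CPM in those of Myh11-Cre mice, and 22.5, 21.2 and 23.6 CPM in those of Wild Type mice. Every Itga8-Cre mouse was above every other mouse, at log2 0.39 against Wild Type and 0.44 against Myh11-Cre (SE 0.13 each, edgeR adjusted p = 0.699 and 0.521), which did not pass. Smad3, a mediator of the pathway, was at -0.34 in Itga8-Cre against Myh11-Cre (edgeR adjusted p = 0.521). Nfyb and Nfyc, subunits of the factor that binds CCAAT, were each at 0.29 in Myh11-Cre against Wild Type (adjusted p = 0.305 and 0.268).

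**Figure D5:**
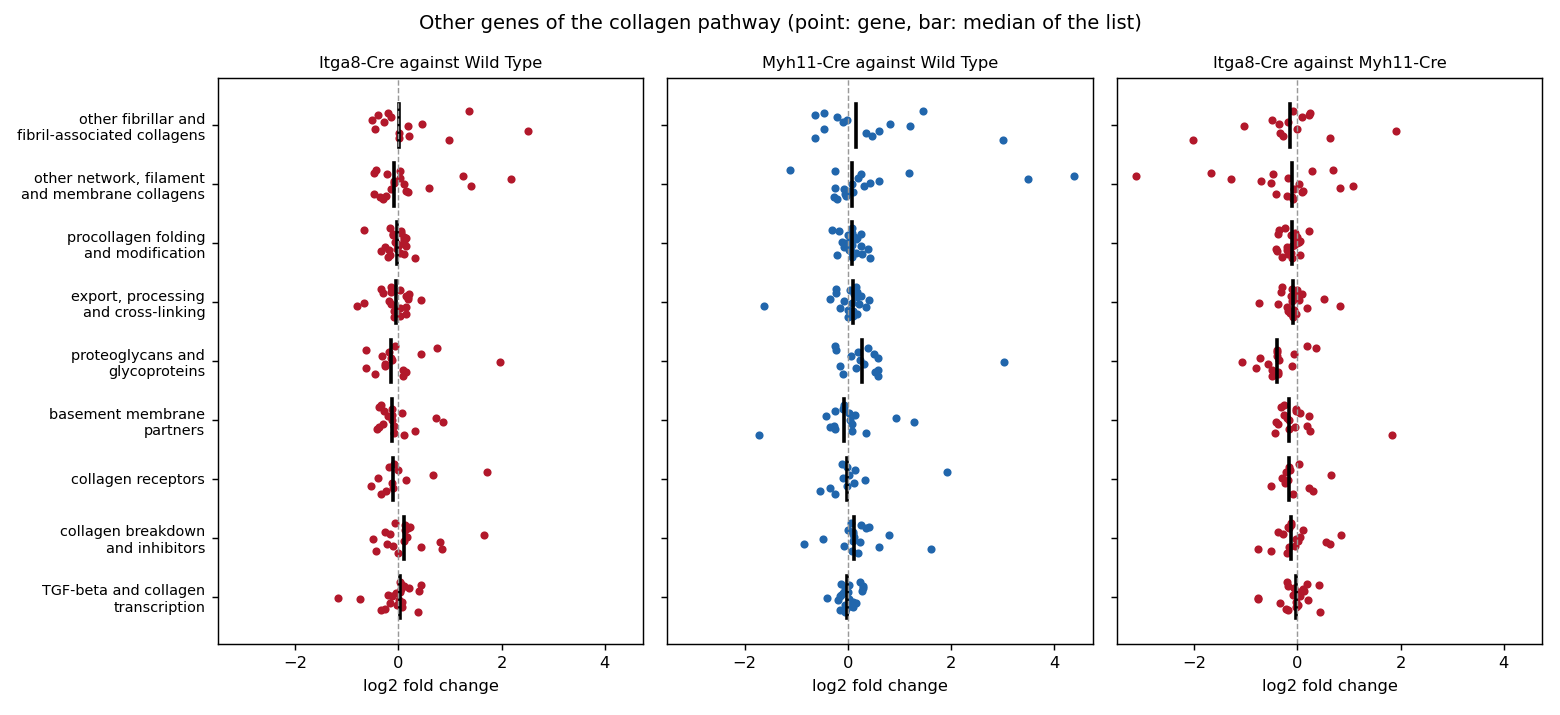
Log2 fold change (x axis) of each tested gene of 9 lists around collagen production, binding and breakdown (y axis), in Itga8-Cre against Wild Type, Myh11-Cre against Wild Type and Itga8-Cre against Myh11-Cre, with 1 point per gene and a bar at the median of each list. The medians lie between -0.39 and 0.27, and edgeR called none of the genes.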

How the data were processed

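Messenger RNA of 9 whole mouse aortae, 3 per genotype, was measured with 1 library per mouse. The authors deposited counts per gene symbol, used for all tests, and a second table of signal (each library's counts over its own size factor), used only as a check. Per the submitters' processing notes, the build was GRCm38.p6 and the tools were Salmon 0.13.1, DESeq2, STAR 2.7.0f, fastp 0.20.0, featureCounts and Subread 1.6.4, with no role or order. For annotation release and strand, the setting was not given in the sources used here.

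Counts were fitted with edgeR 4.0.16 in R 4.3.3 (filterByExpr by genotype, TMM, robust quasi-likelihood F test, genotype means over all 9 libraries), with Benjamini-Hochberg adjustment over 19412 genes and a threshold of 0.05. The common biological coefficient of variation was 0.294. DESeq2 1.42.0 and limma voom 3.58.1 were run beside it. The edgeR fit was also run on simulated counts with known changes. These were drawn independently for each gene, without variation shared between genes, so the run does not cover such variation. Ratios used two-sided exact permutation tests of log2 ratios. Positions and lengths came from GENCODE M21, promoter windows from RefSeq for 8 of the 10 genes. The p-values of edgeR, DESeq2 and limma voom set a difference against the spread between mice of a genotype, 3 mice each. That spread was estimated from all 9 libraries and in part shared across genes. Permutation p-values count how often a regrouping of the mice compared gives as large a difference. mt-Rnr2 took 12.3% to 18.2% of counts, and leaving it out of the totals together with Scd1 and Fasn was 1 of the alternatives. The others were other scalings, filters, tools, marker covariates, the mouse number as a block and libraries left out.

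The collagens and the lists were chosen with earlier results of these data known. In each list the genes called by edgeR were to be named, or, where none was, the 2 with the smallest p and a mean of at least 1 CPM. Some genes picked this way are not reported here, though list counts and medians include them. The genes most like Col1a1 and Col4a1 were the 5 with the highest r. Which of these have their level given per mouse was chosen after the values were seen, as was Col17a1 in Myh11-Cre against Wild Type.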

Additional observations from a re-analysis of the deposited data

How the results depend on the processing

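In all 19 alternatives per comparison 0 of the 10 collagens were called, with a lowest adjusted p of 0.0875, for Col8a1 in Myh11-Cre against Wild Type without Myh11-Cre mouse 1. Of 190 collagen values per comparison, 13 turned sign in Itga8-Cre against Wild Type, 19 in Myh11-Cre against Wild Type and 12 in Itga8-Cre against Myh11-Cre, in no case with a call. The mouse number was not taken to pair the mice in the main fit. Same-numbered pairs all had positive correlations of residuals, from 0.0328 to 0.396, with 5 of 9 over 0.1. Other pairs ran from -0.355 to 0.24. In every genotype Col4a1 and Col4a2 fell with rising mouse number, and skeletal muscle markers rose. White and brown fat markers were highest in mouse 1 of every genotype. The labels do not say what the number stands for, and its effect was not tested. With the mouse number as a replicate block the collagen medians were 0.01, -0.14 and 0.15, and Col15a1 turned to -0.0247 in Myh11-Cre against Wild Type.

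In Itga8-Cre against Wild Type, a smooth muscle marker covariate gave log2 0.19 for Col5a1, 0.13 for Col8a1 and 0.11 for Ogn. Without the 3 libraries rich in skeletal muscle markers Col5a1 was 0.17 and Col4a1 0.0406. In Myh11-Cre against Wild Type, Col15a1 was -0.0448 in limma voom and -0.12 with a skeletal muscle covariate. Without the 3 libraries the median was -0.74, Col8a1 -0.42, Col15a1 -0.71, Dcn -0.21, Dpt -0.53 and Ddr1 -0.0426. In Itga8-Cre against Myh11-Cre, Col18a1 was 0.0358 with the skeletal and 0.28 with the smooth muscle covariate. Without the 3 libraries the median was 0.96, Col8a1 0.16, Col18a1 0.78, Pcolce2 0.25, Aspn 0.0525, Dpt 0.54, Lama2 0.58, Itga11 0.17 and Timp3 0.18. That setting leaves 1 Myh11-Cre library, taken to vary like the others. The cause of each turn was not tested.

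Leaving out 1 mouse at a time, log2 fold changes in Itga8-Cre against Wild Type ran from -0.0419 to 0.33 for Col1a2, -0.067 to 0.34 for Col5a2, -0.16 to 0.28 for Col15a1, -0.25 to 0.17 for Col5a1, -0.16 to 0.13 for Col4a1 and -0.24 to 0.005 for Col4a2. In Myh11-Cre against Wild Type they ran from -0.60 to 0.0807 for Col1a1, -0.45 to 0.17 for Col1a2, -0.53 to 0.17 for Col3a1, -0.35 to 0.12 for Col5a2, -0.20 to 0.28 for Col15a1 and -0.21 to 0.0834 for Col4a1. In Itga8-Cre against Myh11-Cre they ran from -0.0454 to 0.15 for Col4a1, -0.0219 to 0.19 for Col4a2, -0.19 to 0.30 for Col15a1, -0.37 to 0.0501 for Col18a1 and -0.0437 to 0.57 for Col1a2. The collagen median ran from -0.11 to 0.22, from -0.40 to 0.10 and from 0.03 to 0.35 in the same order of comparisons. No chain ratio moved by more than the spread between mice, also without the 3 muscle-rich libraries, a setting for ratios chosen after seeing the data. So was the longest transcript as length, which puts Col15a1 to Col18a1 between 0.502 and 0.947 and leaves differences as they are. Of the other genes, without 1 mouse Col17a1 ran from -4.33 to -1.175 in Itga8-Cre against Myh11-Cre, Timp1 from 0.93 to 2.11 and Ogn from -0.89 to -0.12 in Itga8-Cre against Wild Type. Over all genes edgeR called 0 in each comparison and DESeq2 30, 828 and 19 in the same order.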

Other observations

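Of all counts of the 10 collagens, Col4a1 and Col4a2 together took 24.4%, 19.9% and 28.7% in Itga8-Cre mice 1, 2 and 3, 38.2%, 20.1% and 27.0% in Myh11-Cre mice 1, 2 and 3, and 26.3%, 26.6% and 27.9% in Wild Type mice 1, 2 and 3. Both Cre lines reached below and above the 3 Wild Type mice.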
